A study of Mus musculus with 8 samples.

Results

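NADPH oxidases are membrane enzymes that pass electrons from NADPH to oxygen and release superoxide or hydrogen peroxide. The genes described here are Nox4, one of their catalytic subunits, and 5 genes of the phagocyte enzyme: Cyba, Cybb, Ncf1, Ncf4 and Rac2. They are 6 of the 22013 genes in the count table. They were chosen by name with the fold changes of this same comparison already known. Their differences between the groups are therefore a description, and the calls given for them below are not independent tests.

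The study sequenced poly(A)-enriched RNA from mouse liver, with 4 control and 4 resmetirom libraries. Resmetirom is an agonist of thyroid hormone receptor beta. Per the series' design text, the model was steatohepatitis induced by a diet of fructose, palmitate and cholesterol, fed for 12 weeks. The daily dose was 5 mg/kg/day by intraperitoneal injection. Dosing began once 4 weeks of feeding had passed and covered the other 8 weeks, in a vehicle with 0.5% CMC-Na and 0.4% Tween-80. Strain, sex, age and genotype are not given in the labels. The labels of the control libraries say neither which diet nor which injection the mice had, so a difference between the groups cannot be told apart from a difference in either. No label says that the libraries of a group came from separate animals, and the p-values below measure only the spread between libraries.

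Total counts lay between 16787561 and 19887539 per library, and 12207 genes passed the filter on low counts, all 6 oxidase genes among them. Across all of them, 317 were called higher and 243 lower with resmetirom (edgeR quasi-likelihood test, Benjamini-Hochberg adjusted p under 0.05). The TMM scaling factors ran from 1.08 to 1.16 in the control libraries and from 0.804 to 1.06 in the resmetirom libraries. With plain library sizes in their place, the median log2 fold change of all genes moved from -0.00434 to -0.312 and the split became 151 higher and 1961 lower. Levels are given as CPM, counts scaled to a common TMM-adjusted library size. A count of 3, taken as the floor, corresponded to 0.136 to 0.203 CPM on this scale.

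As background, Nox4 binds p22phox, the product of Cyba, is active without cytosolic activators and releases mainly hydrogen peroxide. It is found in hepatocytes, stellate cells and vessel walls, and is a known transcriptional target of TGF-beta. Cybb encodes gp91phox (Nox2), the catalytic subunit of the phagocyte oxidase, also bound to p22phox. That enzyme rests until cytosolic proteins, among them p47phox (Ncf1) and p40phox (Ncf4), and a Rac GTPase, in leukocytes mostly Rac2, join it at the membrane. In liver it is known from Kupffer cells, monocytes and neutrophils.

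The upstream sequences of the catalytic genes Nox4 and Cybb are shown because these genes are the ones compared most closely below, and because they differ in base composition. The 250 bases before each RefSeq start are printed 5′ to 3′ on the gene's strand (RefSeq, GRCm38.p6). They lie at chr7:87246399-87246648 on the plus strand for Nox4 and at chrX:9469325-9469574 on the minus strand for Cybb. Both windows fall inside the GENCODE gene bounds, 87246096 to 87398710 for Nox4 and 9435252 to 9487771 for Cybb. Whether they hold exons of longer transcripts was not examined. Capitals mark the motifs GGGCGG (the Sp1 box) and AGGAAG (an Ets core) and CCAAT (the CCAAT box), searched on both strands.
Nox4: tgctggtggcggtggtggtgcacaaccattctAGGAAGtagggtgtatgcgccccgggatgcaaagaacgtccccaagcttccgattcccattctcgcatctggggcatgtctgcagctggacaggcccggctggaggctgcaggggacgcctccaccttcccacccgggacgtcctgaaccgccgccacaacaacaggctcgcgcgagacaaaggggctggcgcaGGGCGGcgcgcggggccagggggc
Cybb: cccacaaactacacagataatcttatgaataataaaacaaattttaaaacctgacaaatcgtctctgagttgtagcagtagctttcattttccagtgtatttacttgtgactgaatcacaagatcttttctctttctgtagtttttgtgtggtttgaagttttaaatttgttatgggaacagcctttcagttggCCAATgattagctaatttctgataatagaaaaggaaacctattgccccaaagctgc

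The Nox4 window was 67.2% G and C, a share reached by 13.5% of the 32851 promoter windows of the table. The Cybb window was 34% G and C, and 4.25% of windows were at or below that. The median window had 52.4%. In Nox4 the AGGAAG match starts 218 bases and the GGGCGG match 24 bases before the start, and in Cybb the CCAAT match starts 56 bases before it. GGGCGG also occurs in the windows of Cyba, 24 and 6 bases before the start, and of Ncf1, 42 bases before it on the opposite strand. Such matches are common: 32.7% of all windows hold GGGCGG, 29.5% hold AGGAAG and 33.8% hold CCAAT. The nuclear receptor half-site AGGTCA was in 14% of all windows, and GAGGAAGT (the PU.1 core, which contains AGGAAG) in 2.44%. Neither of these is in the windows of Nox4, Cybb, Cyba or Ncf1, which says only that those letters are not there. Ncf4 and Rac2 were not matched to a window.

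Nox4 (ENSMUSG00000030562, chromosome 7, 87246096 to 87398710, plus strand, GRCm38) was lower with resmetirom. The control libraries held 773, 695, 1038 and 967 Nox4 counts, and the resmetirom libraries 44, 72, 97 and 21. In CPM these were 36, 33.6, 47.2 and 47.8 in the control libraries against 2.48, 4.68, 6.46 and 1.42 in the resmetirom libraries. The highest resmetirom library stood well below the lowest control library, so the groups did not overlap. The means were 41.1 ± 7.39 CPM (SD, n = 4) and 3.76 ± 2.25 CPM (SD, n = 4). The log2 fold change was -3.46 with a standard error of 0.395, an 11-fold lower level. The spread between libraries, as a share of the mean, was 18% in the control group and 59.9% in the resmetirom group.

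Of the 6 genes, 1 was called lower and 0 higher. Over all tested genes 1.99% were called lower and 2.60% higher, and 5.50% had every resmetirom library below every control library. The choice of the genes rests on this same contrast, and nothing is read from these shares.

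**Figure D1:**
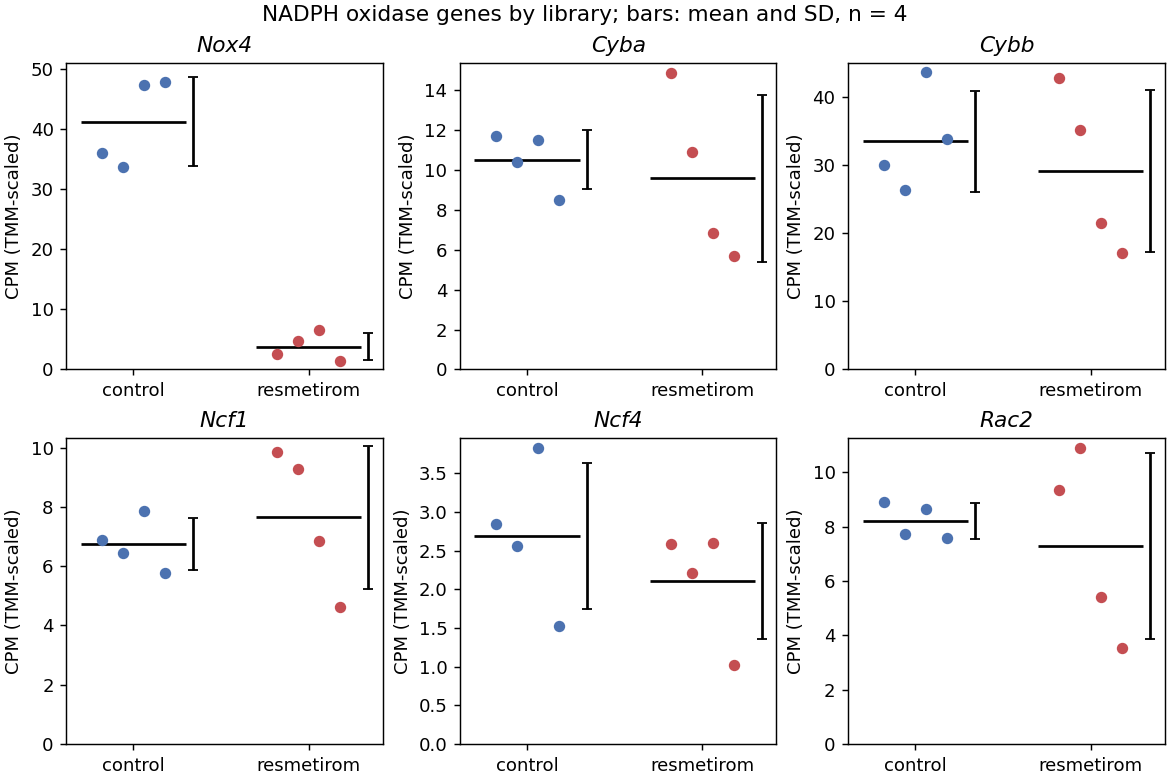
CPM of the 6 genes in each library (points are libraries, 4 per group, with lines at the group means and bars for the SD). Nox4 lies between 33.6 and 47.8 CPM in the control libraries and between 1.42 and 6.46 CPM in the resmetirom libraries, while the groups overlap for the other 5 genes.

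Nox4's protein partner did not share that difference. Cyba (ENSMUSG00000006519, chromosome 8, 122424776 to 122432930, minus strand) encodes p22phox, which both enzymes need to be stable in the membrane. The control libraries held 11.7, 10.4, 11.5 and 8.5 CPM of Cyba, and the resmetirom libraries 14.9, 10.9, 6.86 and 5.69 CPM. The highest and the lowest value were both in the resmetirom group, and the groups overlapped. The log2 fold change was -0.13 (SE 0.269), and Cyba was not called. Cyba overlaps Gm20388 in the annotation. Whether the counting used strand is not stated, so reads of overlapping genes cannot be told apart.

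Cybb (ENSMUSG00000015340, chromosome X, 9435252 to 9487771, minus strand), the catalytic subunit of the phagocyte enzyme, was at 30, 26.3, 43.6 and 33.8 CPM in the control libraries. In the resmetirom libraries it was at 42.7, 35.1, 21.4 and 17.1 CPM. Resmetirom libraries 1 and 2 thus lay within the control range, and libraries 3 and 4 below it. The log2 fold change was -0.20 (SE 0.291), with no call.

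Ncf1 (ENSMUSG00000015950, chromosome 5, 134220053 to 134229625, minus strand) encodes the organiser p47phox, whose phosphorylation starts assembly. Its values were 6.89, 6.43, 7.86 and 5.78 CPM in the control libraries and 9.86, 9.29, 6.86 and 4.61 CPM in the resmetirom libraries. The log2 fold change was 0.18 (SE 0.23), with no call and groups that overlapped. Ncf1 overlaps Gtf2ird2 on the opposite strand, a gene with 34 to 59 counts per library and a log2 fold change of 0.32 (SE 0.256, edgeR adjusted p = 0.601).

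Ncf4 (ENSMUSG00000071715, chromosome 15, 78244801 to 78262580, plus strand) encodes p40phox, which binds phosphoinositides on phagosome membranes. It was the least abundant of the 6 in CPM, at 2.84, 2.56, 3.82 and 1.53 in the control libraries and 2.59, 2.21, 2.6 and 1.02 in the resmetirom libraries. Counts were 15 to 84 per library. The log2 fold change was -0.35 (SE 0.358), with no call.

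Rac2 (ENSMUSG00000033220, chromosome 15, 78559167 to 78572783, minus strand) is the GTPase of blood cells that switches the phagocyte enzyme on. It was at 8.89, 7.74, 8.63 and 7.56 CPM in the control libraries and at 9.36, 10.9, 5.39 and 3.52 CPM in the resmetirom libraries. The log2 fold change was -0.17 (SE 0.293), with no call. Reads of Rac2 and its near-identical paralogs Rac1 and Rac3 could have been divided among them by the counting, so its level is uncertain to that extent.

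Among the resmetirom libraries, Cyba and Cybb were lowest in library 4 and second lowest in library 3, and Rac2 and Ncf1 followed the same order. The coefficient of variation was larger in the resmetirom than in the control group for Cyba (14% and 43.6%), Cybb (22.2% and 40.9%), Ncf1 (12.9% and 31.5%) and Rac2 (7.97% and 46.9%). For Ncf4 it was alike, at 34.9% and 35.5%. In bulk liver, fewer cells of a type and less RNA per cell cannot be told apart.

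The mean of leukocyte genes was likewise highest in resmetirom library 1 and lowest in library 4, although single genes such as Ptprc peaked in library 2, as Rac2 did. A list of 11 genes was taken as pan-leukocyte, among them Ptprc (CD45) and Tyrobp. Their mean log2 CPM was 3.73, 3.74, 4.18 and 3.83 in the control libraries and 4.19, 4.04, 3.5 and 3 in the resmetirom libraries. Of the 11, 0 were called by edgeR, DESeq2 or limma-voom, and 1 had an unadjusted p under 0.05. Over the 8 libraries, Cybb correlated with that mean at Pearson r = 0.972 (exact permutation p = 0.000198, two-sided, adjusted over 5 relations 0.000992) and Spearman rho = 0.952 (exact permutation p = 0.00114, adjusted 0.0057). Without resmetirom libraries 1 and 4, the libraries farthest from the median, r was 0.958. All libraries share liver tissue and scaling, and the leukocyte genes and Cybb are read from the same libraries. The permutations ran over all 8 libraries without regard to group. Cybb is itself a gene of leukocytes, so a correlation with this mean could be foreseen from the choice of genes. The mean does not stand for every kind of leukocyte. Its 11 genes had a median log2 fold change of -0.09, and 8 tested lymphocyte and plasma cell markers had 1.06. Fcer1g, one of the 11, is also among the genes most like Cybb.

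For the other subunits r over the 8 libraries was lower. Rac2 stood on the pan-leukocyte list itself and was taken off it only because it is one of the genes described. Genes of the phagocyte enzyme could be foreseen to vary with a mean of leukocyte genes, so the p-values are no independent evidence. For Rac2, r was 0.917 (exact permutation p = 0.00561, adjusted 0.00934), rho 0.738 (exact permutation p = 0.0458, adjusted 0.0573), and r without the same 2 libraries 0.759. For Cyba, r was 0.886 (exact permutation p = 0.00466, adjusted 0.00934), rho 0.738 (exact permutation p = 0.0458, adjusted 0.0573), and r without them 0.68. The rank correlations of these genes did not pass after adjustment. For Ncf1, r was 0.856 (exact permutation p = 0.00997, adjusted 0.0125), rho 0.762 (exact permutation p = 0.0368, adjusted 0.0573), and r without the 2 libraries was 0.573. With the mean of each group taken off, r was 0.958 for Ncf1, 0.97 for Cybb, 0.913 for Rac2, 0.878 for Cyba and 0.69 for Ncf4, given as a description. Over the 8 libraries Ncf4 did not pass, with r = 0.711 (exact permutation p = 0.0906, adjusted 0.0906), rho = 0.286 (exact permutation p = 0.501, adjusted 0.501) and r = 0.258 without resmetirom libraries 1 and 4. For Nox4 no pooled correlation is given, because its libraries form separate clusters by group.

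**Figure D2:**
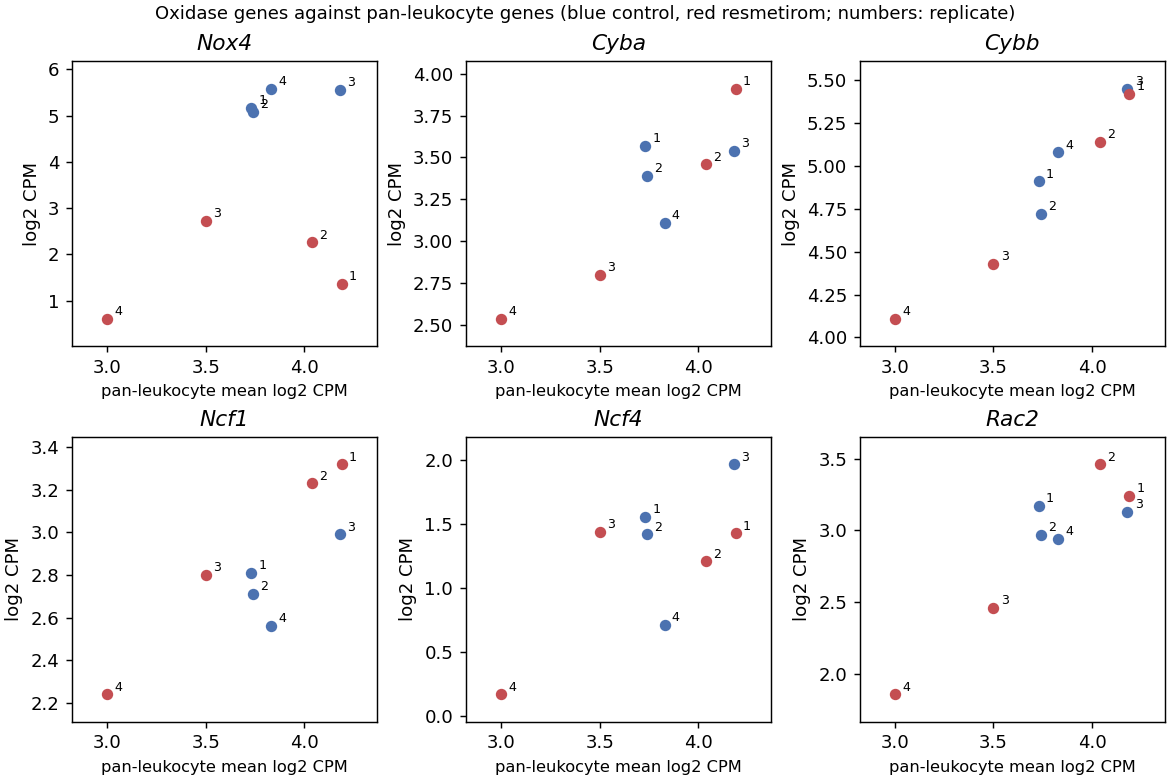
Log2 CPM of the oxidase genes in each of the 8 libraries (vertical axis) against the mean log2 CPM of 11 pan-leukocyte genes in the same library (horizontal axis); points are libraries, marked by group. Cybb follows the leukocyte mean (r = 0.972), whereas Nox4 separates by group.

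Taken relative to the leukocyte mean of the same library, Cybb differed between the groups by -0.08 on the log2 scale and Cyba by -0.04. Rac2 differed by -0.11, Ncf4 by -0.17 and Ncf1 by 0.32. The standard deviation over the 8 libraries went from 0.47 to 0.129 for Cybb and from 0.512 to 0.217 for Rac2. For Nox4 the group difference was -3.42 on this relative scale, with a standard deviation of 2.03 before and 1.92 after.

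Other cell type markers were measured beside these values. Of 16 Kupffer cell and macrophage markers, 0 were called by edgeR (2 had an unadjusted p under 0.05), with a median log2 fold change of -0.25 and summed levels of 869 to 1239 CPM in the control and 527 to 1338 CPM in the resmetirom libraries. Within the resmetirom group these sums were 1338, 1136, 705 and 527 CPM, the same order as Cybb. The order was not particular to macrophage markers, as the sums of dendritic cell markers were 234, 224, 144 and 103 CPM. Those of monocyte, neutrophil and lymphocyte markers had other orders. Clec4f, which marks Kupffer cells, was at 156 ± 38.3 CPM (SD, n = 4) against 144 ± 48.1 CPM (SD, n = 4), a log2 fold change of -0.12 (SE 0.265, edgeR adjusted p = 0.878). The macrophage gene Gpnmb had the smallest p of that list, with a log2 fold change of -1.86 (SE 0.496) and an edgeR adjusted p of 0.0857, and DESeq2 called it lower. Of the 16 markers, 13 had a log2 fold change below 0, while Marco, Timd4 and Csf1r were above 0. Marco was at 20.5 ± 11.2 CPM (SD, n = 4) against 71 ± 57.3 CPM (SD, n = 4). Its log2 fold change was 1.79 (SE 0.775, edgeR adjusted p = 0.303). Of 13 neutrophil markers only 4 passed the filter on low counts and 0 of them were called or had an unadjusted p under 0.05 (edgeR). Sums over all 13 were 5.81 to 10.2 CPM in the control and 3.66 to 9.79 CPM in the resmetirom libraries. Ly6g, Ltf and Mpo had no count in any library. Of 9 monocyte markers, 1 rose: Fn1, which hepatocytes also make, at a log2 fold change of 0.41 (SE 0.105, edgeR adjusted p = 0.0491). That call was lost in most fits that left out 1 library, with adjusted p up to 0.162. The part of cell numbers in the values of the subunits was not tested.

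Nox4 was then set against the phagocyte subunits library by library. Its log2 CPM minus the mean log2 CPM of Cybb, Ncf1, Ncf4 and Rac2 was 2.06, 2.12, 2.18 and 2.76 in the control libraries and -1.98, -1, -0.06 and -1.48 in the resmetirom libraries. It was above the subunits' mean in all 4 control libraries and below it in all 4 resmetirom libraries. The means were 2.28 ± 0.323 (SD, n = 4) and -1.13 ± 0.816 (SD, n = 4), which differ by -3.41 on the log2 scale (SE 0.439). Against single subunits the difference was -3.34 for Cybb, -3.74 for Ncf1, -3.25 for Ncf4 and -3.31 for Rac2. A difference within a library does not move with that library's scaling factor, apart from the prior count added to each gene.

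**Figure D3:**
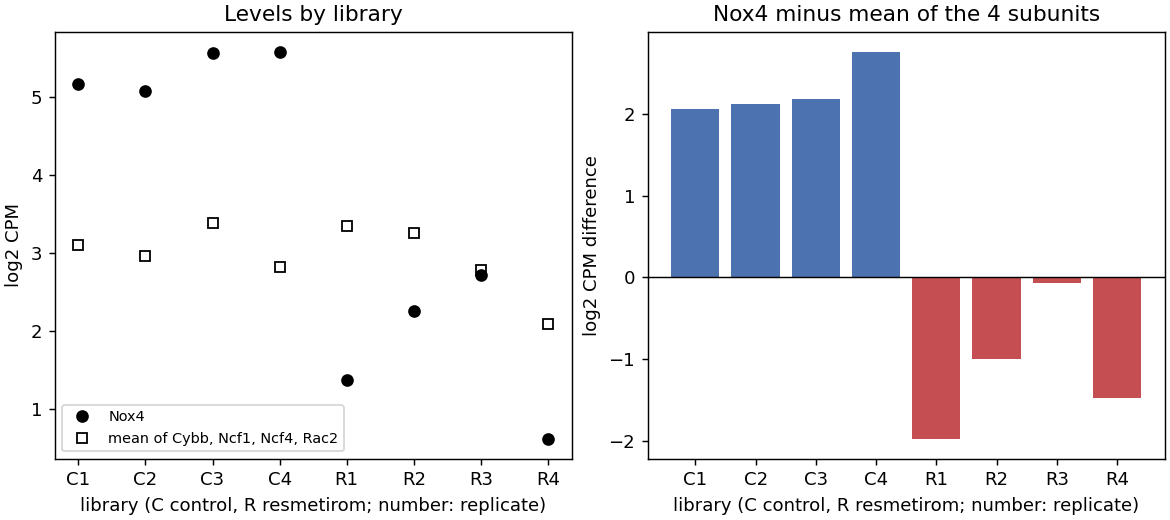
Left, log2 CPM of Nox4 and the mean log2 CPM of Cybb, Ncf1, Ncf4 and Rac2 in each library. Right, Nox4 minus that mean, with a bar for each library (n = 4 per group). The control libraries lie at 2.06 to 2.76 and the resmetirom libraries at -1.98 to -0.06.

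The same appears in raw counts. The control libraries held 1.2, 1.28, 1.08 and 1.41 Nox4 counts for each Cybb count, and the resmetirom libraries 0.058, 0.133, 0.302 and 0.083. Per transcript length, on the deposited TPM scale, Nox4 was 60.3%, 61.8%, 57.8% and 64.2% of the sum of Nox4 and Cybb in the control libraries. It was 7.53%, 14.5%, 27.7% and 9.51% in the resmetirom libraries. The catalytic subunit with more transcript was thus Nox4 in every control library and Cybb in every resmetirom library.

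In TPM, a level per transcript length that allows genes to be ranked, Cyba led the control libraries at 26.4 ± 3.08 (SD, n = 4), followed by Nox4 at 20.6 ± 4.61 (SD, n = 4) and Cybb at 13.2 ± 3.33 (SD, n = 4). Cyba and Nox4 overlapped, and so did Nox4 and Cybb. Cybb lay above Rac2 in every control library. Rac2 at 5.11 ± 0.422 (SD, n = 4), Ncf1 at 4.62 ± 0.613 (SD, n = 4) and Ncf4 at 3.49 ± 1.35 (SD, n = 4) followed, with neighbours within their spread. In the resmetirom libraries Cyba was at 18 ± 11.1 TPM (SD, n = 4) and Cybb at 8.47 ± 4.86 TPM (SD, n = 4). Rac2 was then at 6.25 ± 4.08, Ncf1 at 3.82 ± 1.74 and Ncf4 at 1.93 ± 0.85 TPM (SD, n = 4 each), each within the spread of the next. Nox4 came last at 1.3 ± 0.611 TPM (SD, n = 4), a mean below that of Ncf4 by less than their spread.

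For Rac2 the deposited counts and TPM do not tell the same story in 1 library. Resmetirom library 4 had the lowest Rac2 count, 52, and the highest Rac2 TPM, 11.76, whereas the other resmetirom libraries had 6.152, 5.131 and 1.972 TPM. Counts per TPM, a ratio set by transcript length and depth, were 27 to 41.1 for Rac2 in 7 libraries and 4.42 in resmetirom library 4. Once the median ratio of each library was taken off, that value was 7.75-fold off the gene's own median. For the other 5 genes no library was more than 1.11-fold off. Of 11159 genes with at least 10 counts in every library, 14 (0.125%) were 4-fold or more off in some library. Without resmetirom library 4 the Rac2 mean was 4.42 ± 2.18 TPM (SD, n = 3). In the authors' deposited table the log2 fold change of Rac2 was 0.29, of opposite sign to the -0.17 from the counts. Ncf1 also had the opposite sign there, at -0.273 against 0.185 from the counts. Cyba had -0.557, Cybb -0.638 and Ncf4 -0.859 there, further below 0 than the -0.13, -0.199 and -0.351 from the counts. The authors' adjusted p-values for these phagocyte genes ran from 0.0993 (Cybb) to 0.594 (Ncf1), in their own comparison, whose test is not stated. Nox4 had -3.99 there.

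**Figure D4:**
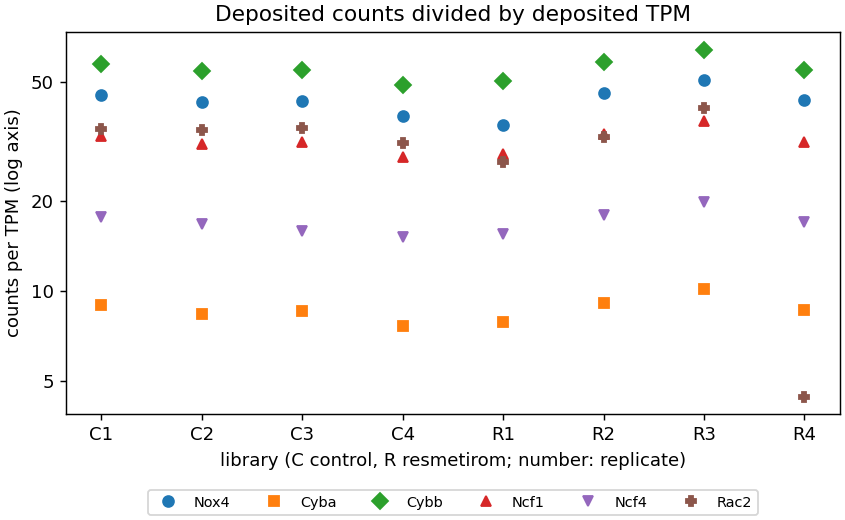
Deposited count divided by deposited TPM for the 6 genes in each library (log axis; C control, R resmetirom, points are single libraries). Rac2 lies at 27 to 41.1 in 7 libraries and at 4.42 in resmetirom library 4, and the other genes move together with small shifts from library to library.

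Other genes of the oxidase family held no call in the main edgeR fit. Of 16 further family genes, 8 passed the filter on low counts and 0 were called by edgeR, DESeq2 or limma-voom, 2 of them with an unadjusted p under 0.05. Of the 8, 5 had a log2 fold change below 0, and the median was -0.12, beside -0.00434 over all genes. Rac1, the widely expressed GTPase of the family, was at 127 ± 5.67 CPM (SD, n = 4) and 129 ± 4.99 CPM (SD, n = 4), a log2 fold change of 0.02 (SE 0.0775, edgeR adjusted p = 0.941). Cybc1, the chaperone of the gp91phox and p22phox pair, had a log2 fold change of 0.12 (SE 0.253, edgeR adjusted p = 0.868). Poldip2, a protein known to bind p22phox and raise Nox4 activity, was at 78 ± 6.07 against 67.7 ± 2.74 CPM (SD, n = 4 each). Its log2 fold change was -0.20 (SE 0.0873, edgeR adjusted p = 0.245). On the log2(TPM + 1) scale, where the median of all genes was -0.408, Rac1 and Poldip2 were called lower, and Rac1, Cybc1 and Ncf1 had a negative sign there as well as with plain library sizes. Poldip2 was also called lower with plain library sizes (edgeR adjusted p = 0.00917).

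The scaffold Sh3pxd2a (Tks5), an organiser for Nox1 and Nox4 in other cells, was at 17.1 ± 1.15 CPM (SD, n = 4) and 22.3 ± 2.9 CPM (SD, n = 4). Its log2 fold change was 0.39 (SE 0.12, edgeR adjusted p = 0.0999), and its sign turned on the TPM scale. Its relative Sh3pxd2b had a log2 fold change of -0.46 (SE 0.35, edgeR adjusted p = 0.57). Hvcn1, the proton channel that balances the charge moved by the phagocyte enzyme, had -0.08 (SE 0.434, edgeR adjusted p = 0.958), and Tlr4, a receptor reported to bind Nox4, had -0.16 (SE 0.238, edgeR adjusted p = 0.81). Noxo1, the organiser of Nox1, had 70 counts in all and a log2 fold change of -0.25 (SE 0.541, edgeR adjusted p = 0.871).

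The other catalytic subunits, and several partner genes of the family, were nearly or wholly unread. Nox1 had 12 counts, 8 of them in control library 3, 3 in resmetirom library 2 and 1 in resmetirom library 4. Noxa1 had 16 counts and Rac3 had 14, each over 5 libraries. Nox3, Duox1, Duox2, Duoxa1 and Duoxa2 had 0 counts in all 8 libraries, which allows a level of up to 0.203 CPM in resmetirom library 4, where the floor was highest.

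**Figure D5:**
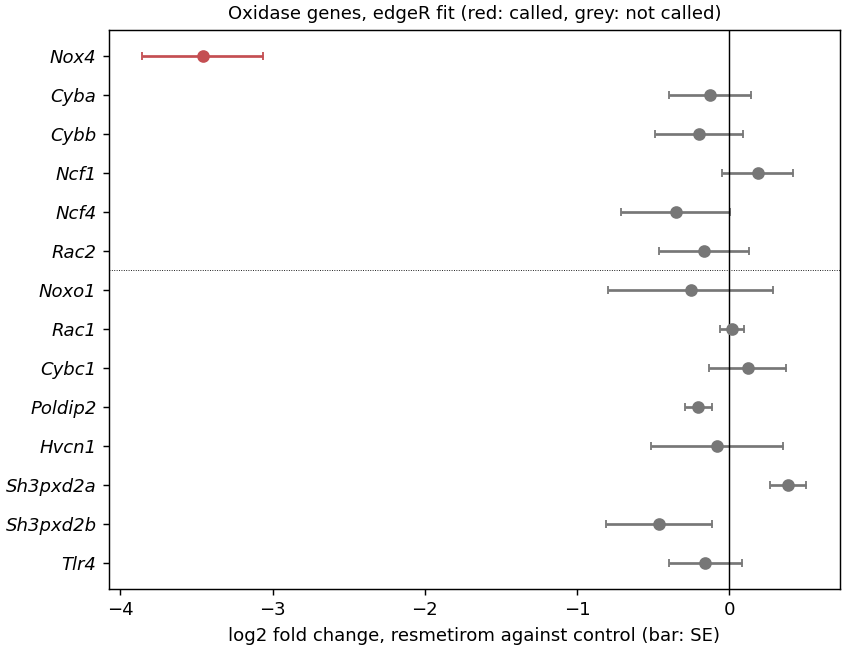
Log2 fold change (resmetirom against control, edgeR) of the 6 genes and of the 8 other family genes that passed the filter on low counts; bars are standard errors. Nox4 stands at -3.46 and the other genes between -0.46 and 0.39.

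TGF-beta, a ligand known to induce Nox4, has 16 pathway genes given here. Of these 0 were called by edgeR, DESeq2 or limma-voom, and 2 had an unadjusted edgeR p under 0.05. A log2 fold change below 0 was found for 6 of them, and the median was 0.11. The gene Tgfb1 had a log2 fold change of -0.28 (SE 0.227, edgeR adjusted p = 0.608). Of the genes that encode inhibitors of SMAD signalling, Skil, Smad7 and Ski had a log2 fold change above 0 and Smad6 one below 0. Smad7 had 0.256 (SE 0.213, edgeR adjusted p = 0.613) and Ski 0.12 (SE 0.109, edgeR adjusted p = 0.651). Skil was at 16.3 ± 0.649 CPM (SD, n = 4) and 21.2 ± 5.48 CPM (SD, n = 4). Its log2 fold change was 0.38 (SE 0.158, edgeR adjusted p = 0.227), and its sign turned on the TPM scale. Smad6 was at 6.42 ± 0.582 CPM (SD, n = 4) and 4.16 ± 1.71 CPM (SD, n = 4), a log2 fold change of -0.62 (SE 0.263, edgeR adjusted p = 0.239).

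Stellate cells and myofibroblasts also carry Nox4. Of their 18 tested markers 1 fell, 0 rose and 14 had a log2 fold change below 0, with a median of -0.14. An unadjusted edgeR p under 0.05 was found for 3 of them: Col3a1, Col1a1 and Lox. Summed levels of all 19 listed markers were 421 to 683 CPM in the control and 437 to 756 CPM in the resmetirom libraries. Dcn, at group means of 343 and 356 CPM, made up most of each sum. Col3a1, a fibrillar collagen, fell from 31.2 ± 7.83 CPM (SD, n = 4) to 15 ± 5.07 CPM (SD, n = 4). The fitted log2 difference was -1.06 (SE 0.254, edgeR adjusted p = 0.0474). That call was lost without several of the libraries, with adjusted p from 0.0641 to 0.144. Col1a1 had a log2 fold change of -1.02 (SE 0.42, edgeR adjusted p = 0.243). Lox, with 3 to 21 counts per library, had -1.16 (SE 0.501, edgeR adjusted p = 0.247). Lrat, the retinol-esterifying enzyme that marks stellate cells, had a log2 fold change of -0.40 (SE 0.352, edgeR adjusted p = 0.646), and the myofibroblast actin Acta2 had -0.20 (SE 0.291, edgeR adjusted p = 0.8). Of 9 measured hepatocyte markers 1 rose by edgeR, 5 had an unadjusted p under 0.05, and the median was 0.33. DESeq2 called 3 higher and 1 lower (Alb, Apoa1, Cps1 and Serpina1c), and limma-voom called 3 higher. The gene called by edgeR was Cps1, the first enzyme of the urea cycle, from 3317 to 5634 CPM (log2 fold change 0.76, SE 0.146, edgeR adjusted p = 0.00988), a call lost with plain library sizes (adjusted p = 0.0836) and with limma on log2(TPM + 1) (adjusted p = 0.3). Of 11 endothelial markers 0 were called by edgeR and 1 (Tek) by DESeq2, 4 had an unadjusted edgeR p under 0.05, and the median was -0.34, with all 11 below 0. The part of these cell types in the Nox4 difference was not tested.

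NADPH is the substrate of all these oxidases, and 14 tested genes encode enzymes that supply it. Of these 2 rose, 1 fell and the median was 0.16, beside 2.60% higher and 1.99% lower over all genes. Me1, the cytosolic malic enzyme and a known thyroid hormone target, rose from 140 ± 16.6 CPM (SD, n = 4) to 225 ± 27.4 CPM (SD, n = 4), or 0.69 on the log2 scale (SE 0.113, edgeR adjusted p = 0.00405). That call was lost with plain library sizes (adjusted p = 0.0657) and with limma on log2(TPM + 1) (adjusted p = 0.357). Idh1, the cytosolic isocitrate dehydrogenase, rose from 352 to 450 CPM (log2 fold change 0.35, SE 0.0888, edgeR adjusted p = 0.0441), a call lost with plain library sizes (adjusted p = 0.779) and without several single libraries (0.0749 to 0.124). Idh2, its mitochondrial counterpart, fell from 153 ± 9.43 CPM (SD, n = 4) to 103 ± 9.28 CPM (SD, n = 4), or -0.58 on the log2 scale (SE 0.0906, edgeR adjusted p = 0.00285).

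Genes that start the oxidase or remove its products held no call in the main edgeR fit. Of 24 genes for assembly and activation signals, such as protein kinase C isoforms, 0 were called and the median was -0.12. The smallest p was that of the kinase gene Prkcd, with a log2 fold change of -0.64 (SE 0.19, edgeR adjusted p = 0.0857), and 3 genes had an unadjusted p under 0.05. Of 21 tested genes for handling superoxide and peroxide 0 were called, 4 had an unadjusted p under 0.05, and the median was 0.02. Aqp9, a channel for glycerol and peroxide, had 0.38 (SE 0.107, edgeR adjusted p = 0.0681). Of 11 tested genes for other sources of superoxide or peroxide 0 were called, 4 had an unadjusted p under 0.05, and the median was -0.14. Cyp2e1, the ethanol-inducible cytochrome, had -0.28 (SE 0.113, edgeR adjusted p = 0.224). With plain library sizes Cyp2e1 and Prkcd were called lower (edgeR adjusted p = 0.0045 and 0.0111). Both were also called lower with limma on log2(TPM + 1) (adjusted p = 0.00232 and 0.00503). DESeq2 called Prkcd lower, and 2 genes higher and 1 lower among those for superoxide and peroxide (Sod1, Aqp8 and Aqp9), and limma-voom called none in these lists.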

How the data were processed

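Liver RNA of 4 control and 4 resmetirom mouse libraries was compared. The authors' deposited table gives counts and TPM per gene and library, with a log2 fold change and p-values of their own comparison, per the file headers. Per the submitters' processing notes the genome was mm10, and edgeR, DESeq2, RSEM, StringTie (1.3.1), HISAT2 (2.1.0), Bowtie2 (2.2.8) and fastp (0.18.0) were used, in roles not stated. The sequencer of each library and the handling of strand are not given in the sources used here.

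All genes were fitted with edgeR 4.0.16 (R 4.3.3): filterByExpr, TMM, robust quasi-likelihood test on group, Benjamini-Hochberg threshold 0.05. Of 22013 genes, 5994 had no counts. Log2 CPM used a prior count of 2. The fit was checked on simulated data. Standard errors come from that fit or, for the Nox4 contrast, from the 2 group SDs. The oxidase genes and lists were chosen with earlier results of these data known. Named were all 6 genes, the other family genes, up to 4 called genes per list by smallest p or else the 1 with the smallest p, and the 5 genes most like Nox4 and Cybb. Chosen after their values were seen were Clec4f, Marco, Timd4, Csf1r, Lrat, Acta2, Col1a1, Lox, Dcn, Tgfb1, Smad6, Smad7, Ski, Alb, Apoa1, Serpina1c, Nkg7, Gzma, Sod1, Aqp8, Gtf2ird2, Ptprc and Tyrobp. Alternatives were DESeq2 1.42.0, limma 3.58.1 (voom, or log2 TPM with pseudocounts of 1 and 0.1), other scaling, filters and variance settings, a replicate block and leaving out each library. Rac2 was taken off the pan-leukocyte list, and 2 genes of other lists are not reported here. No libraries of a group agreed within counting noise (chi-square per degree of freedom 13.2 to 196).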

Additional observations from a re-analysis of the deposited data

Results flagged for a closer look

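Nox4 relative to the phagocyte subunits was set apart in 1 control library: control 4 was at 2.76 on the log2 scale and the other control libraries at 2.06 to 2.18. The gap was 0.834 of the group's range, above the Dixon critical value of 0.829 for 4 libraries. In that library Ncf4 was lowest of its group, at 1.53 CPM, and Nox4 was highest, at 47.8 CPM. The check was made on 26 groups of values, and about 1 in 20 is set apart by chance.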

How the results depend on the processing

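In all 19 alternatives Nox4 alone of the 6 genes was called, lower in each, with a log2 fold change of -4 to -3.19, and its difference from the subunits was -3.77 to -2.87. These runs reuse the libraries and the contrast behind the choice of the genes. They describe the effect of processing only. Counts over all genes moved more. DESeq2 called 532 higher and 411 lower. Plain library sizes gave 151 higher and 1961 lower, log2(TPM + 1) gave 123 and 4648, and log2(TPM + 0.1) gave 122 and 4608. With plain library sizes and on both log2 TPM scales, Poldip2, Prkcd, Cyp2e1, Gpnmb, Lcp1, Tek and Sox9, not called in the main fit, were called lower. Leaving out 1 library gave 182 to 313 higher and 149 to 238 lower, fewest without control 4 (182 and 149) and without resmetirom 4 (208 and 161). With the replicate block the counts were 240 higher and 166 lower. The deviations of same-numbered libraries from their group means correlated at -0.325, 0.184, -0.186 and -0.0612. With so few libraries, these values cannot settle whether the numbers pair them. Signs turned for genes near 0 or under another scaling. With plain library sizes the log2 fold change was -0.102 for Ncf1, -0.191 for Cybc1 and -0.287 for Rac1. On log2(TPM + 1) it was -0.0645 for Sh3pxd2a, -0.0929 for Fn1, -0.122 for Aqp9, -0.147 for Idh1, -0.282 for Cybc1, -0.284 for Ncf1, -0.473 for Rac1 and 0.0674 for Rac2. On log2(TPM + 0.1) the same genes had -0.0879, -0.0937, -0.122, -0.148, -0.325, -0.366, -0.479 and 0.0362. Skil had -0.111 and -0.136 on these scales. With 1 library left out, Rac1 had -0.00727 (without control 2) to 0.0438, Hvcn1 -0.375 to 0.202 (0.13 without control 3, 0.202 without resmetirom 2), Cybc1 -0.0509 (without resmetirom 3) to 0.415, Cyba -0.427 to 0.0513 and Rac2 -0.423 to 0.0602 (both highest without resmetirom 4). Rac1 was also negative without resmetirom 4 (-0.00034), and Cyba was at 0.000334 without resmetirom 3. The cause of these changes was not tested. Ncf4, with 15 to 84 counts per library, has the widest counting error of the 6.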

Other observations

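The genes most like Cybb within the groups included macrophage genes. After the mean of each group was taken off, the highest Pearson correlations over the 8 libraries among 11606 genes were those of Cd68 (0.986), a lysosomal macrophage protein, Tmem106a (0.983), Neurl3 (0.98), Cd5l (0.979), a secreted protein of Kupffer cells, and Fcer1g (0.978), an adaptor of Fc receptors. They stayed at 0.963 or above in every alternative run. The genes most like Nox4 by the same measure were Slc37a1 (0.963), Ell (0.962), Chp1 (0.953), Galnt7 (0.945) and Ep300 (0.944). That list depended on the scaling: with plain library sizes Chp1 was at 0.0509 and Ep300 at 0.503. These are descriptions of the highest of many correlations, over libraries that share depth and scaling.

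Leukocyte genes of other kinds did not all follow the phagocyte subunits. Of 8 tested lymphocyte and plasma cell markers 1 rose by edgeR, 4 had an unadjusted edgeR p under 0.05, and DESeq2 called 2 higher (Nkg7 and Jchain). The median of the 8 was 1.06 on the log2 scale. Sums over all 15 listed genes were 6.13 to 11.5 CPM in the control and 10.6 to 26.5 CPM in the resmetirom libraries. The highest sum, in resmetirom library 2, held 8.31 CPM of Gzma, which did not pass the filter on low counts. The gene called by edgeR was Jchain, the joining chain of secreted antibodies, at 1.67 ± 0.563 and 4.57 ± 0.963 CPM (SD, n = 4 each), or 1.44 on the log2 scale (SE 0.3, edgeR adjusted p = 0.0157). Of 8 tested dendritic cell markers 0 were called by edgeR or DESeq2 (3 had an unadjusted edgeR p under 0.05), with a median of -0.49. Sums over all 9 listed were 221 to 283 CPM in the control and 103 to 234 CPM in the resmetirom libraries. Itgax (CD11c) had a log2 fold change of -0.77 (SE 0.3, edgeR adjusted p = 0.197). Of 6 tested cholangiocyte markers 0 were called by edgeR or DESeq2 and 1 had an unadjusted edgeR p under 0.05. Sox9, a factor of bile duct cells, had -1.38 (SE 0.528, edgeR adjusted p = 0.188), while the list's median was 0.55. Of 8 genes of kidney, adipose tissue and pancreas, 5 had no count in any library and 1 passed the filter on low counts, Cela1, at 0.52 (SE 0.191, edgeR adjusted p = 0.166).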
